A study of Mus musculus with 20 samples.

Results

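The genes described here encode the nuclear subunits of the mitochondrial respiratory chain (complexes I to IV) and of ATP synthase (complex V), together with factors that help to assemble them. The rule takes every gene whose symbol begins with Ndufa, Ndufb, Ndufc, Ndufs, Ndufv, Uqcr, Sdh, Cox4, Cox5, Cox6, Cox7, Cox8 or Atp5 and whose expected counts sum to at least 1000 over the 20 libraries. Of 20960 genes in the table, 99 carry such a name and 92 reached the minimum. The rule uses names and summed counts, and no difference between groups. The 92 comprise 45 genes named for complex I (7 core subunits, 29 accessory subunits, 8 assembly factors and Ndufb4c, a near-copy of Ndufb4) and 8 for complex II (4 subunits and 4 assembly factors). A further 8 belong to complex III, 14 to complex IV and 17 to complex V. Subunits encoded by mitochondrial DNA were not analysed here.

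Messenger RNA of mouse ovary was sequenced in 20 libraries, 5 in each of 4 groups. The ptLNPIFN-Y group is labelled as ovarian cancer treated with ptLNPIFN-Y, the LNPIFN-Y group as ovarian cancer treated with LNPIFN-Y, the Model group as ovarian cancer alone, and the Control group carries "N/A" as its treatment. Per the series text, the mice were C57BL/6 and the tumour was grown from ID8Luci cells, a mouse ovarian line that carries luciferase, placed in the ovarian bursa after targeted particles for follicle-stimulating hormone had expanded it. In that text the peptide-targeted particle carries interferon-γ mRNA, injections ran from day 62 to day 95 after 60 days of tumour growth, and tissue was taken on day 97 or at a humane endpoint. The text describes no particle without the peptide. It names a sham arm, and the labels do not say whether Control is that arm, whether its bursa was expanded or how old the mice were. They do not say either whether the 5 libraries of a group are separate animals, so p values measure the spread between these libraries, which may be technical. No group is labelled as given an empty particle. Effects of the particle and of interferon-γ cannot be told apart.

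Library totals ran from 16496793 to 17218043 counts. The libraries differ in tissue content: the summed level of 12 adipocyte markers ranged from 1310 to 21000 CPM in ptLNPIFN-Y, from 1270 to 10500 in LNPIFN-Y, from 1400 to 3180 in Model and from 1590 to 10700 in Control (CPM is a gene's count relative to its library total after TMM scaling). Oocyte and granulosa markers check the label ovary: granulosa markers summed to 455 to 2730 CPM in ptLNPIFN-Y, 293 to 1930 in LNPIFN-Y, 1430 to 2780 in Model and 1700 to 3140 in Control. Of 10 oocyte markers, 4 were at 0 in ptLNPIFN-Y 5 and 6 in LNPIFN-Y 5, and Zp3, an egg-coat gene, was at 0 in both. All 6 genes of an interferon response list passed the test in LNPIFN-Y and in ptLNPIFN-Y against Model (median log2 fold changes of 4.04 and 4.33). In whole tissue, fewer cells of a type and less RNA per cell cannot be told apart.

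As background, complex I takes electrons from NADH and complex II from succinate, both pass them through coenzyme Q to complex III, and cytochrome c carries them to complex IV, which reduces oxygen. The protons pumped on the way drive ATP synthase. Most subunits are encoded in the nucleus and must be made in set proportions; the transcription factors NRF1, GABPA, YY1 and the oestrogen-related receptors are known regulators of many of them. In the ovary, mitochondria also make the first steroid intermediate from cholesterol.

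Promoter sequences are shown for 4 members: Sdhaf2, Ndufa8 and Cox7a1, which passed the test against Control in particle-treated ovaries, and Atp5g3, which lay lower in every LNPIFN-Y library than in every Control library. Each runs from 250 bases before to 50 bases after the RefSeq start (GRCm38.p6), 5′ to 3′ on the gene's strand: Sdhaf2 at chr19:10525160-10525459 on the minus strand, Cox7a1 at chr7:30183921-30184220 on the plus strand, Ndufa8 at chr2:36049289-36049588 on the minus strand and Atp5g3 at chr2:73911277-73911576 on the minus strand. The Atp5g3 window lies wholly inside the gene as annotated for the counts, chr2:73908447-73912464. Its RefSeq start is thus not the start used there. Capitals mark the NRF1 core GCATGCGC in Ndufa8 and the oestrogen-related receptor motif CAAGGTCA, read on the opposite strand, in Atp5g3.
Sdhaf2: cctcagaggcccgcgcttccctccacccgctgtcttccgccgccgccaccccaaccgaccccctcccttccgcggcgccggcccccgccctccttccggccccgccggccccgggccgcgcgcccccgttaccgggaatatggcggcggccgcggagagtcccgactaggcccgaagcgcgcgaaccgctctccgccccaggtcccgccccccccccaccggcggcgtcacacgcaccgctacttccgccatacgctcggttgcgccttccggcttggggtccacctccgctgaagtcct
Cox7a1: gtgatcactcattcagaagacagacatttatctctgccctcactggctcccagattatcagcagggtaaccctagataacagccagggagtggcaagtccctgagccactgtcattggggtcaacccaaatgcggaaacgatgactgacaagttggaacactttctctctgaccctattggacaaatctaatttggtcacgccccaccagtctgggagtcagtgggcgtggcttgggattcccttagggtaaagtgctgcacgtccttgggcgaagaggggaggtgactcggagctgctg
Ndufa8: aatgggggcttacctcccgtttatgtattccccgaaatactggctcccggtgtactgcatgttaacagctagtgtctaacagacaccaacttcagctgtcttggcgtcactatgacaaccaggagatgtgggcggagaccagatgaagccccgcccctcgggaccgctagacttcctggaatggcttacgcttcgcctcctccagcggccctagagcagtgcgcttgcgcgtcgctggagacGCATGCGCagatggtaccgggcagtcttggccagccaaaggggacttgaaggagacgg
Atp5g3: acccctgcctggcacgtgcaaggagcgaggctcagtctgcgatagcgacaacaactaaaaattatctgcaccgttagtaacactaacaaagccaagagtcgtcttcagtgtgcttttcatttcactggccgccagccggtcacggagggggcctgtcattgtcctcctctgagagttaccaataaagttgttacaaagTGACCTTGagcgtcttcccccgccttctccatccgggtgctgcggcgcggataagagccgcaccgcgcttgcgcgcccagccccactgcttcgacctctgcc
Of the 92 members, 77 had an entry in the RefSeq promoter table (5 with more than 1 start), and both strands were searched. The NRF1 core GCATGCGC was found in 12 members (15.6%, against 3.1% of all 26742 genes in the table), and the full NRF1 palindrome, which is this core with GC before it, in 7 of those (9.1% against 1.1%). The YY1 letters AAGATGGC were present in 11 members (14.3% against 3.2%), the receptor motif CAAGGTCA in 4 (5.2% against 1.7%) and the GABPA letters CCGGAAGT in 5 (6.5% against 4.3%). GGGCGG, the SP1 box, occurred in 37 members (48.1% against 38.5%). The interferon-stimulated response element (GAAA, any 2 bases, GAAA) was found in 2 members (2.6% against 4% of all genes). Of the promoters shown, Sdhaf2 matched the SP1 box alone, Ndufa8 the SP1 box beside the NRF1 core, and Cox7a1 none of these motifs. These are matches of letters in a short window, shown without a test.

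Levels compared between genes are given per length as TPM, computed from the deposited counts and gene lengths. Complexes IV and V held the most abundant members. Atp5b, the catalytic beta subunit of ATP synthase, averaged 1380 TPM over the 20 libraries, Cox4i1, a nuclear subunit of cytochrome c oxidase, 1220 TPM and Cox6c, another, 1100 TPM. Atp5a1, the alpha subunit that alternates with beta in the catalytic head, averaged 792 TPM, and Cox6a1 and Cox8a, the widely expressed forms of their subunits, 824 and 819 TPM. In complex III, Uqcrh reached 673 TPM, while the core proteins Uqcrc1 and Uqcrc2 averaged 224 and 249 TPM and the Rieske iron-sulfur protein Uqcrfs1 239 TPM. The 4 subunits of complex II lay close together: Sdha, the flavoprotein that oxidises succinate, averaged 325 TPM, the iron-sulfur subunit Sdhb 234 TPM, and the membrane anchors Sdhc and Sdhd 268 and 236 TPM. The highest complex I gene, Ndufb9, averaged 407 TPM, the flavoprotein Ndufv1, which accepts electrons from NADH, 170 TPM, and Ndufs1, an iron-sulfur protein of the same arm, 97.2 TPM. Per length, the lowest members were the assembly factors Ndufaf5 and Ndufaf6, which averaged 1.72 and 3.22 TPM. Ndufaf5 has a listed length of 16711 bases. Without division by length it averaged 11 CPM, above Ndufaf6 (6.03 CPM) and Cox7a1 (4.49 CPM). Sdhaf3 averaged 17.1 TPM, and Ndufa4l2, an isoform gene of complex IV, lay below it in 18 of 20 libraries: its mean was 23 TPM with LNPIFN-Y 5 and 14.5 TPM without it.

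**Figure D1:**
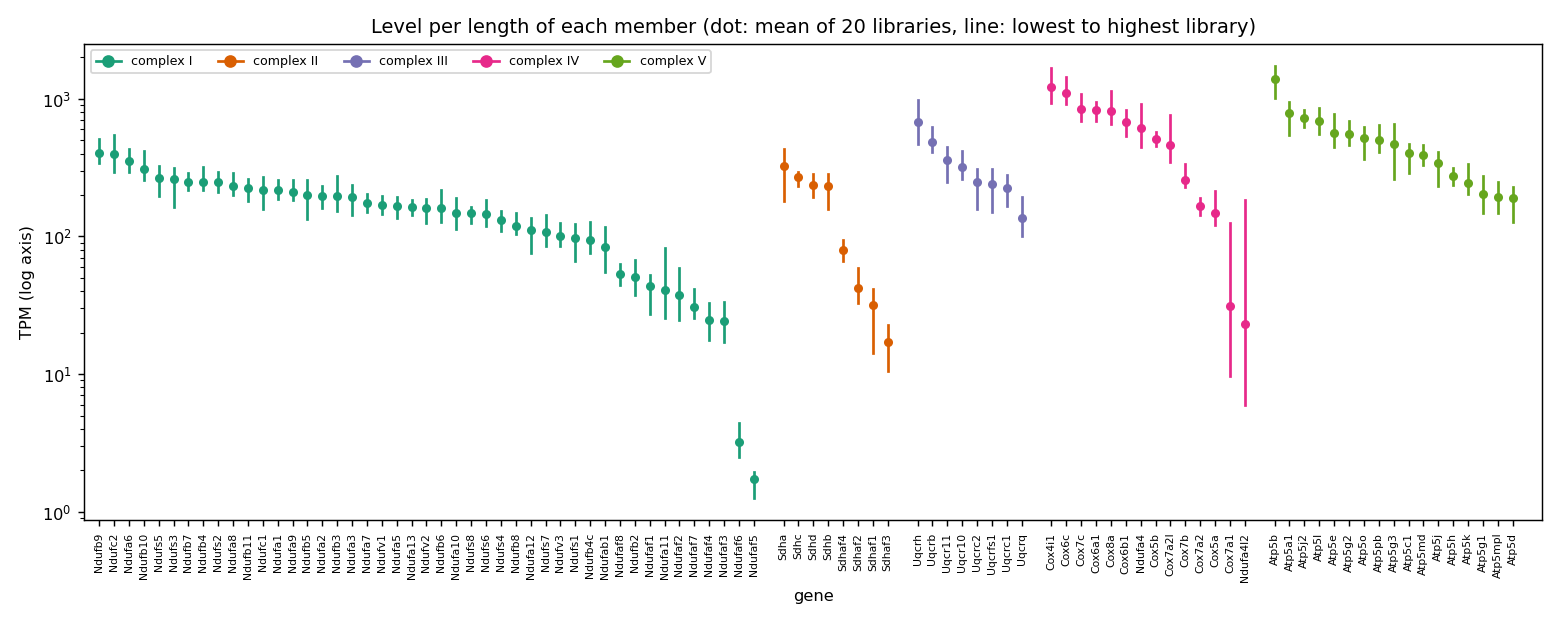
Level of each of the 92 genes in TPM (log axis), grouped by complex and ordered by mean; the dot is the mean of 20 libraries and the line runs from the lowest to the highest library. Most lines are short beside the distances between genes; those of Cox7a1 (9.62 to 125 TPM) and Ndufa4l2 (5.93 to 184 TPM) are the exceptions in complex IV.

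Tissue-restricted forms were low. The minimum of 1000 counts left out Cox8c, Cox7b2, Ndufb4b, Cox6a2, Cox8b, Cox4i2 and Cox6b2, with 1, 2, 20, 71, 488, 766 and 943 counts in all. Cox7a1 and Ndufaf6 lay just inside, with 1477 and 2021 counts. Of those left out, Cox4i2, the lung and hypoxia form of subunit 4, had 19 to 68 counts per library in ptLNPIFN-Y, 20 to 71 in LNPIFN-Y, 10 to 45 in Model and 30 to 48 in Control. The muscle form Cox6a2 had at most 11 counts in a library. Cox8b, the muscle and brown fat form of subunit 8, had 7 to 70 counts in ptLNPIFN-Y, 0 to 29 in LNPIFN-Y, 1 to 16 in Model and 6 to 92 in Control. Its 4 highest libraries, Control 2, Control 5, ptLNPIFN-Y 1 and ptLNPIFN-Y 5, are the 4 with the highest adipocyte marker mean, a list that includes Cox8b.

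The members varied little between the 20 libraries. The SD of log2 CPM had a median of 0.203 over the members, against 0.39 over all 15723 tested genes and 0.229 over the 3152 tested genes at least as abundant as the median member. In 86 members it was under 0.3. Ndufa6, a complex I accessory subunit, was the steadiest, with a coefficient of variation of 5.72%: its 20 values lay between 69.9 and 85.3 CPM. The core subunit Ndufs8 varied by 8.43%. At the other end, Cox7a1 and Ndufa4l2 had SDs of 1.01 and 1.22, and their highest library was 13.4 and 39.4 times their lowest. Next were Ndufa11, an accessory subunit of complex I, at 0.378 and Sdhaf2 at 0.363.

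**Figure D2:**
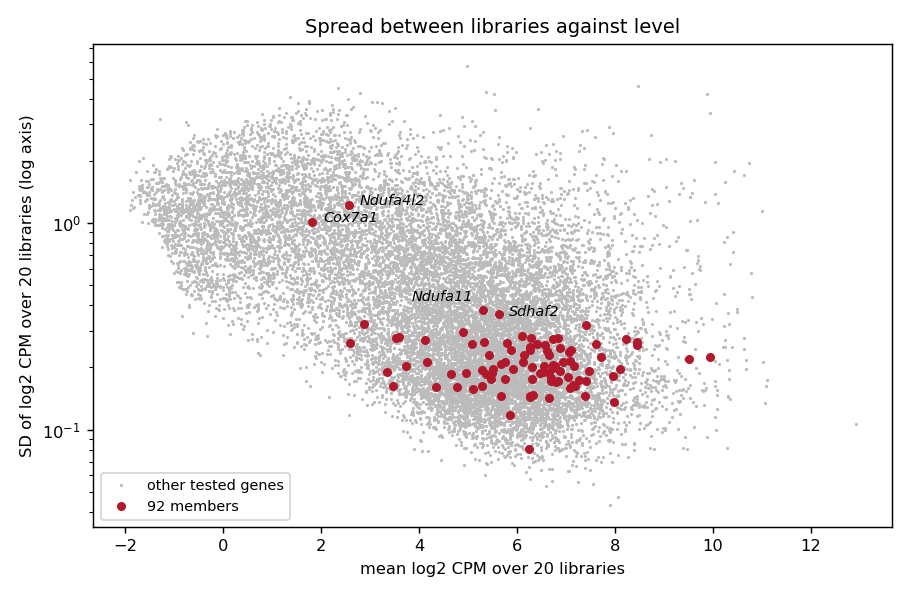
SD of log2 CPM over the 20 libraries (log axis) against mean log2 CPM for every tested gene; red dots are the 92 members. Most members sit at or under 0.3 on the lower side of the cloud, and Ndufa4l2 (1.22) and Cox7a1 (1.01) stand above them.

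Averaged over the 92 genes, each centred on the 20 libraries, the mean log2 CPM was 0.096 ± 0.21 in ptLNPIFN-Y, -0.038 ± 0.094 in LNPIFN-Y, -0.034 ± 0.11 in Model and -0.026 ± 0.1 in Control (SD, n = 5 each). The 4 groups overlap. ptLNPIFN-Y 5 stood apart at 0.41 and was the highest of the 20 libraries for 62 of the 92 members; the other 4 ptLNPIFN-Y libraries lay between -0.16 and 0.13. ptLNPIFN-Y 3, at -0.16, was the lowest library for 22 members, more than any other library.

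Adipocyte markers moved with this mean in part. Their centred mean (12 genes of 14 listed, with Ucp1 at 0 in Model 3) was 1.87 in ptLNPIFN-Y 5, 1.73 in Control 2 and 1.34 in ptLNPIFN-Y 1, where the member means were 0.41, 0.12 and 0.13. It was -1.14 in ptLNPIFN-Y 3 and -0.87 in Model 4, where the member means were -0.16 and -0.17. Model 2, the second highest library for the members at 0.14, had an adipocyte mean of -0.1. Control 5, among the 4 libraries with the highest adipocyte mean, had a member mean of 0.02. Citrate cycle genes, the mitochondrial pathway that supplies NADH and succinate, had their highest mean (0.64) in ptLNPIFN-Y 5 as well. Ovarian markers were very low in that library: 8 theca and luteal markers, genes of steroid-making cells, summed to 204 CPM in ptLNPIFN-Y 5 and to 2220 to 8570 CPM in the other 4 ptLNPIFN-Y libraries, and their range was 156 to 12100 CPM in LNPIFN-Y, 2250 to 14600 in Model and 1510 to 8610 in Control. Hsd3b1 and Lhcgr were at 0 in ptLNPIFN-Y 5. Its centred means were -5.25 for theca and luteal, -3.74 for granulosa and -5.32 for oocyte markers. LNPIFN-Y 5 was as low (-5.44, -4.3 and -5.46), with a member mean of -0.02. The part of fat and ovarian cell content in these differences was not tested.

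**Figure D3:**
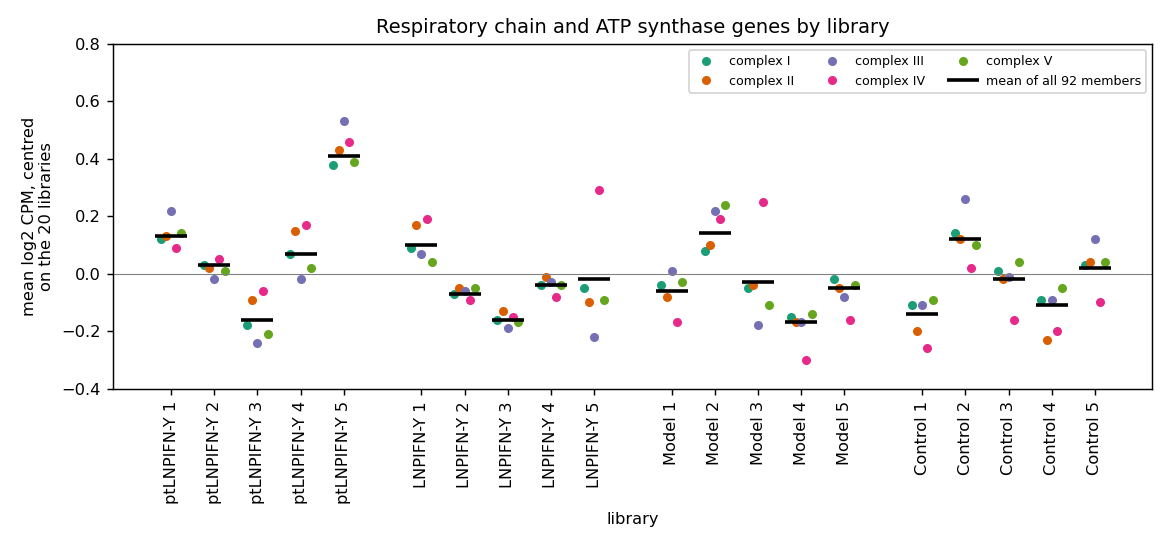
Mean centred log2 CPM in each library for each complex (coloured dots) and for all 92 members (black bar). ptLNPIFN-Y 5, at 0.41, is the highest bar and its 5 complexes lie together; complex IV lies above the rest in Model 3 (0.25) and LNPIFN-Y 5 (0.29), but without Ndufa4l2 and Cox7a1 its mean there is -0.12 and 0.02.

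The members varied together. The correlation of each with the mean of the others had a median r of 0.68 over the 20 libraries (range -0.13 to 0.94), and 70 members were at or above 0.5. Without ptLNPIFN-Y 5 and Model 2, the 2 libraries farthest from the median, the median r was 0.54 and 52 members reached 0.5. The lowest were Ndufaf2 (-0.13), Ndufa4l2 (-0.08) and Cox7a1 (0.02). Of 15631 other genes, the 5 most like the member mean were Tomm6 (r = 0.94), a part of the outer-membrane import pore, Cox19 (0.93), a copper chaperone factor for complex IV, Cycs (0.92), which is cytochrome c, Mtch2 (0.92), an outer-membrane carrier protein, and Tmem70 (0.91), an ATP synthase assembly factor. Without the same 2 libraries these were 0.87, 0.92, 0.86, 0.88 and 0.81. All points share library depth and scaling, and the correlations are given as a description.

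As a share of all counts, without TMM scaling, the 92 genes took 0.875% to 1.21% in ptLNPIFN-Y, 0.835% to 0.988% in LNPIFN-Y, 0.916% to 1.13% in Model and 1.03% to 1.15% in Control. All 5 LNPIFN-Y libraries were below all 5 Control libraries on this scale. As a share of TPM, ptLNPIFN-Y ran from 2.42% to 3.02%, LNPIFN-Y from 2.3% to 2.59%, Model from 2.62% to 3.04% and Control from 2.78% to 3.09%, without overlap between LNPIFN-Y and either Model or Control. TMM factors ran from 0.885 to 1.11, and the CPM values in the following comparisons are scaled by them. With library size alone the median log2 fold change of all genes shifts to -0.15 in LNPIFN-Y against Control and to -0.18 in ptLNPIFN-Y against Control, and the members' medians are then -0.15 and -0.05.

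The comparison of Model with Control asks what the tumour model does to these genes. None of the 92 members passed an edgeR adjusted p of 0.05 (smallest 0.936), and neither did any other gene (0% in each direction). DESeq2 called 0 members too, and 27 genes higher and 2 lower. At an unadjusted p under 0.05, 2 members were higher and 0 lower (4.23% and 0.681% of all genes). In no member did the 2 groups lie apart (0.572% of all genes higher and 0.223% lower). The median log2 fold change was -0.04, against 0.01 over all genes, and 36 members were above 0 (52.9% of all genes). Central subunits differed little: Sdha averaged 339 ± 25.4 CPM in Model and 381 ± 65.9 CPM in Control, Uqcrc1 138 ± 12.9 and 147 ± 14.8 CPM, Atp5b 969 ± 97.8 and 1020 ± 90.4 CPM (SD, n = 5 each). The lowest log2 fold changes were those of Cox4i1 (-0.21 ± 0.15, SE), the complex I accessory subunit Ndufb5 (-0.20 ± 0.14) and the iron-sulfur core subunit Ndufs7 (-0.19 ± 0.12). Atp5g1, 1 of 3 genes for the proton-carrying c ring, was at 0.29 ± 0.15.

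The 2 members with an unadjusted p under 0.05 were Ndufa4l2 and Cox7a1. Without Model 3 their log2 fold changes were 0.53 and 0.34, against 1.81 ± 0.84 and 1.56 ± 0.60 (SE) with it. Cox7a1 had 2.16, 2.85, 16.9, 1.88 and 1.87 CPM in Model libraries 1 to 5, against 2.18, 1.34, 1.26, 2.15 and 1.72 CPM in Control. Ndufa4l2, a paralog of Ndufa4 known to be induced by hypoxia and prominent in pericytes, had 5.86, 3.66, 36.9, 4.24 and 4.41 CPM in Model, against 2.34, 2.98, 3.74, 3.23 and 3.44 CPM in Control. In both genes Model 3 is far above the other 4. Hypoxia targets (11 genes, Ndufa4l2 not among them) summed to 1470 CPM in Model 3, against 623 to 771 CPM in the other Model libraries, and 20 glycolysis genes to 7890 CPM, against 4940 to 6800 CPM. The pericyte marker Rgs5 was at 77.8 CPM in Model 3, inside the 45.3 to 134 CPM of the Model group. Higd1b, another pericyte marker, was highest of that group in Model 3, at 2 CPM against 1.22 to 1.65 CPM. The smooth muscle marker Acta2 was lowest of that group in Model 3, at 376 CPM against 397 to 1770 CPM. The skeletal muscle gene Acta1 was at 0.728 CPM in Model 3, inside the 0.341 to 13 CPM of the group. Ckm, another muscle gene, had 48 counts in Model 3, the most of the 20 libraries, against 1 to 12 in the other Model libraries. The muscle genes Myh4 and Myh6 were at 0 in Model 3. The part of hypoxia, pericytes or muscle in the Ndufa4l2 and Cox7a1 values of Model 3 was not tested.

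LNPIFN-Y against Model asks what treatment with LNPIFN-Y changes in the tumour model. No member passed the test (smallest edgeR adjusted p 0.203), against 5.25% of all genes higher and 0.566% lower. DESeq2 called 0 members too (6.54% of all genes higher and 3.13% lower). At an unadjusted p under 0.05, 0 members were higher and 1 lower (10.4% and 8.32% of all genes), and in no member did the groups lie apart (4.33% and 0.884%). The median log2 fold change was 0 (all genes -0.03), with 45 members above 0 (45.5% of all genes). Complex medians ran from -0.05 to 0.04. Of the members, 97.8% lay within 0.5 on the log2 scale, against 72.4% of all genes, and the 95% interval of 89 members stayed within 1.

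The lowest in that comparison was Ndufa11, with 38.1, 29.8, 36.5, 30.3 and 29.4 CPM in LNPIFN-Y against 33.2, 84.9, 35, 42.3 and 42.7 CPM in Model (log2 fold change -0.54 ± 0.23, SE, edgeR adjusted p 0.203). The Model mean is raised by Model 2, and the groups overlap. Ndufaf2 and Sdhaf1, assembly factors of complexes I and II, followed at -0.32 ± 0.16 and -0.30 ± 0.17. Ndufa4l2 (1.04 ± 0.82), Sdhaf2 (0.36 ± 0.18) and Cox7a2 (0.21 ± 0.11), the widely expressed form of subunit 7a, were the highest.

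ptLNPIFN-Y against Model asks the same of the targeted particle. No member passed the test (smallest edgeR adjusted p 0.0838), against 6.05% of all genes higher and 0.948% lower; DESeq2 called 1 member, Ndufb4c (adjusted p 0.0442; 8.13% of all genes higher and 3.99% lower). At an unadjusted p under 0.05, 14 members were higher and 0 lower (12.7% and 9.66% of all genes), and in no member did the groups lie apart (4.83% and 1.23%). The median log2 fold change of the members was 0.12, against -0.05 over all genes, and 80 of 92 were above 0 (43.8% of all genes), all 8 members of complex II and all 8 of complex III among them. When libraries were scaled only by their totals, 42 were above 0 (30% of all genes), and the medians were -0.02 for the members and -0.18 for all genes, so that the distance between the medians hardly changed. Without ptLNPIFN-Y 5 the members' median was 0.03, 57 were above 0 and 3 had an unadjusted p under 0.05. The number of members that passed, all higher, was 5 without ptLNPIFN-Y 3, 4 without Model 3, 1 without Model 2 and 1 without ptLNPIFN-Y 1. In those fits 6.96%, 9.98%, 5.41% and 6.57% of all genes were called higher.

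Ndufa9, a complex I accessory subunit, had the smallest adjusted p of the 14, with 126, 114, 98.3, 120 and 160 CPM in ptLNPIFN-Y against 104, 98.2, 107, 88.3 and 95.8 CPM in Model (log2 fold change 0.33 ± 0.11, SE). Its 2 groups overlap through ptLNPIFN-Y 3. Cox8a had 201, 173, 161, 210 and 286 CPM in ptLNPIFN-Y against 127, 196, 169, 124 and 153 CPM in Model (0.42 ± 0.18, edgeR adjusted p 0.185). Ndufb3, another accessory subunit, had 70, 59.9, 47.1, 61.3 and 96.8 CPM in ptLNPIFN-Y against 50.7, 56.9, 51.1, 46.2 and 48 CPM in Model (0.41 ± 0.15, adjusted p 0.119). In all 3 genes ptLNPIFN-Y 5 is the highest library of these groups. Ndufa4l2 (-0.95 ± 0.82), Ndufa11 (-0.31 ± 0.23) and Ndufaf2 (-0.28 ± 0.16) lay lowest.

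ptLNPIFN-Y against LNPIFN-Y compares the 2 treatments, whose labels differ by the prefix pt. No member passed the test (smallest edgeR adjusted p 1), nor did any other gene (0% in each direction), and DESeq2 called 0 members and 0 genes. At an unadjusted p under 0.05, 3 members were higher and 1 lower (1.43% and 1.63% of all genes), and in no member did the groups lie apart (0.102% and 0.089%). Of 92 members, 91 had a log2 fold change above 0 (48.6% of all genes) with a median of 0.14 (all genes -0.01), and the exception was Ndufa4l2 at -1.99 ± 0.84 (SE). The members share their libraries and are not independent: without ptLNPIFN-Y 5 the count above 0 was 63 and the median 0.04. Sdha averaged 379 ± 90.6 CPM in ptLNPIFN-Y and 317 ± 59.4 CPM in LNPIFN-Y (SD, n = 5 each), with a log2 fold change of 0.26 whose 95% interval ran from -0.08 to 0.6. Atp5b was at 0.20, with an interval from -0.11 to 0.51.

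The 3 highest in that comparison were Cox7a1 (0.48 ± 0.58, SE), Ndufab1 (0.36 ± 0.17), the mitochondrial acyl carrier protein that is also a complex I subunit, and Atp5g3 (0.35 ± 0.15), a c-ring gene. Ndufab1 had 89.6, 68.4, 59, 72.3 and 109 CPM in ptLNPIFN-Y, against 79.4, 58.3, 57.7, 62.7 and 52.3 CPM in LNPIFN-Y, and the groups overlap. After Ndufa4l2, the lowest were Ndufaf4 (0.01 ± 0.17), an assembly factor of complex I, and Ndufb5 (0.03 ± 0.14).

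**Figure D4:**
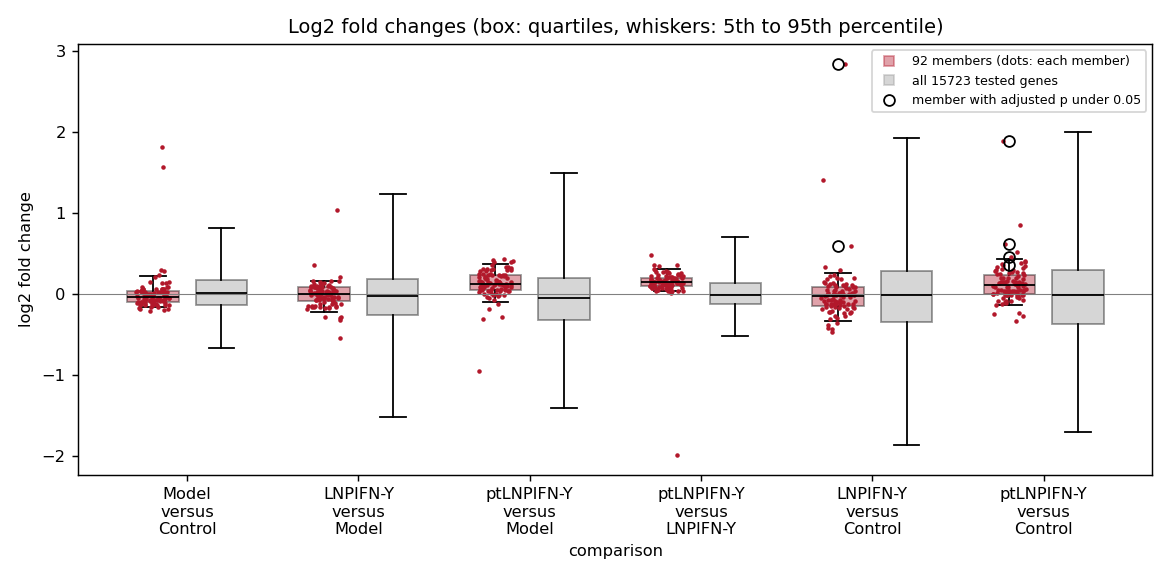
Log2 fold changes of the 92 members (red, each dot a gene) beside all 15723 tested genes (grey) in the 6 comparisons; boxes show quartiles and whiskers the 5th to 95th percentile, and open circles mark members with an edgeR adjusted p under 0.05. The red boxes are narrower than the grey in each comparison; circles appear in the last pair alone, 2 and 4 of them.

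The particle groups were also set against Control, which is the comparison in which members passed the test. In LNPIFN-Y against Control, 2 members rose and 0 fell, where 10.8% of all genes rose and 3.28% fell. In ptLNPIFN-Y against Control, 4 members rose and 0 fell, where 12.2% of all genes rose and 5.39% fell. At an unadjusted p under 0.05, 3 members were higher and 4 lower in LNPIFN-Y (19.1% and 14.4% of all genes), and 18 were higher and 0 lower in ptLNPIFN-Y (19.6% and 15.7%). Members above 0 numbered 38 in LNPIFN-Y and 68 in ptLNPIFN-Y, where 47.6% of all genes lay above 0 in each; the members' medians were -0.03 and 0.11. The calls fall on 5 genes: Sdhaf2 in both, Ndufa4l2 in LNPIFN-Y, and Cox7a1, Ndufb4c and Ndufa8 in ptLNPIFN-Y. When libraries were scaled only by their totals, 2 members rose and 7 fell in LNPIFN-Y (8.73% and 8.05% of all genes), and 2 rose and 4 fell in ptLNPIFN-Y (9.48% and 14.3%). Both comparisons share the Control libraries. The libraries did not overlap for 3 higher and 5 lower members in LNPIFN-Y (13% and 6.5% of all genes), and for 5 higher and 0 lower members in ptLNPIFN-Y (11.1% and 5.65%).

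Sdhaf2 (gene ID 66072, chr19:10500512-10525209, minus strand) attaches the flavin cofactor to Sdha, a step without which complex II does not work. It had 45.4, 51.7, 55.5, 74.3 and 71.4 CPM in ptLNPIFN-Y, 67.6, 48.3, 46.8, 50.4 and 79.1 CPM in LNPIFN-Y, 39.8, 49.6, 61.6, 34.2 and 42.7 CPM in Model, and 36.5, 42.9, 40.9, 36.8 and 37.5 CPM in Control. Each library of both particle groups lay above each Control library, while the Model libraries overlap all other groups. The log2 fold change was 0.62 ± 0.18 in ptLNPIFN-Y (SE, edgeR adjusted p 0.0236) and 0.59 ± 0.18 in LNPIFN-Y (adjusted p 0.0338). Its substrate gene Sdha was at -0.01 ± 0.16 and -0.27 ± 0.16 in the same comparisons. Of the other assembly factors of complex II, Sdhaf3 had 7.21 to 10.3 CPM in ptLNPIFN-Y and 4.03 to 7.86 CPM in Control and passed in DESeq2 (adjusted p 0.0321) but not in edgeR (0.0737).

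The Sdhaf2 call in ptLNPIFN-Y was lost without Control 1, 3 or 4 or ptLNPIFN-Y 4 or 5, and that in LNPIFN-Y without any 1 Control library or without LNPIFN-Y 1 or 5. Adjusted p values then lay between 0.0508 and 0.0826 in ptLNPIFN-Y and between 0.0502 and 0.11 in LNPIFN-Y, and the log2 fold change stayed at or above 0.53 and 0.45.

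Cox7a1 (12865, chr7:30184171-30186030, plus strand) is the heart and muscle form of subunit 7a. It had 2.34, 5.14, 8.44, 11.7 and 4.62 CPM in ptLNPIFN-Y and 9.01, 3.73, 3.87, 3.41 and 3.11 CPM in LNPIFN-Y, both without overlap with the 1.26 to 2.18 CPM of Control. The log2 fold change was 1.89 ± 0.61 in ptLNPIFN-Y (SE, edgeR adjusted p 0.0397) and 1.41 ± 0.60 in LNPIFN-Y (adjusted p 0.112, and 0.0222 with these 2 groups fitted alone). The call in ptLNPIFN-Y was kept without ptLNPIFN-Y 1 alone; without any 1 other library of the 2 groups the adjusted p lay between 0.052 and 0.114. Of 12 skeletal and heart muscle markers, 7 were abundant enough to test, and their summed level was 17.2 to 30.9 CPM in ptLNPIFN-Y, 10.7 to 31.2 in LNPIFN-Y, 18.3 to 45.6 in Model and 22.1 to 28.3 in Control. Myh4 and Myh6 were at 0 in Model 3, LNPIFN-Y 5 and ptLNPIFN-Y 5. Ckm, also on that list, was highest in Model 3 (48 counts) and next in ptLNPIFN-Y 4 (15 counts), against 13 counts in Control 1. The part of muscle content was not tested. Cox7a2, the form found in most tissues, was at 87.6 to 129 CPM in ptLNPIFN-Y, 81.7 to 99.6 in LNPIFN-Y and 81.6 to 104 in Control. Cox7a2 overlaps Tmem30a, so that some of its reads may belong there.

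Ndufa4l2 (407790, chr10:127509274-127517154, plus strand) had 4.8, 7.15, 5.06, 5.63 and 5.83 CPM in ptLNPIFN-Y and 6.22, 5.3, 5.63, 3.77 and 92.3 CPM in LNPIFN-Y. Both groups lie above the 2.34 to 3.74 CPM of Control, LNPIFN-Y 4 only just. The log2 fold change was 2.84 ± 0.87 in LNPIFN-Y (SE, edgeR adjusted p 0.0373) but 0.73 (adjusted p 0.393) without LNPIFN-Y 5; the call was also lost without any 1 Control library, with adjusted p values between 0.063 and 0.081. In ptLNPIFN-Y it was 0.85 ± 0.83 (adjusted p 0.463), and 0.85 with an adjusted p of 0.0118 when those 2 groups were fitted alone. Without Model 3, LNPIFN-Y 5 and ptLNPIFN-Y 5 together, left out after seeing the data, it passed in both particle groups, at 0.85 in ptLNPIFN-Y (adjusted p 0.00829) and 0.76 in LNPIFN-Y (adjusted p 0.0216). Rgs5 and Higd1b, markers of pericytes, were at 53.1 and 2.25 CPM in LNPIFN-Y 5, neither the highest of that group. Hypoxia targets had their highest mean of all 20 libraries in LNPIFN-Y 5 (0.77, summing to 1540 CPM), and so had glycolysis genes (0.55, 10500 CPM). The next highest hypoxia mean was 0.66 in ptLNPIFN-Y 3, where Ndufa4l2 was at 5.06 CPM. The part of hypoxia was not tested. The 12 smooth muscle and pericyte markers summed to 203 to 1910 CPM in ptLNPIFN-Y, 876 to 2020 in LNPIFN-Y and 1970 to 2240 in Control. Against Control, 2 of the 12 had a log2 fold change above 0 in each particle group, and 1 was called higher in each. Higd1b, among the 12, went the other way from the sum. It had 1.57 to 2.75 CPM in ptLNPIFN-Y and 2.19 to 3.09 in LNPIFN-Y, above the 0.911 to 1.48 CPM of Control. The part of pericyte content was not tested. Ndufa4l2 overlaps Shmt2 on the opposite strand and strandedness is not stated, so reads of the pair cannot be told apart. Ndufa4 itself had 84.2 to 173 CPM in ptLNPIFN-Y, 98.9 to 120 in LNPIFN-Y and 103 to 139 in Control.

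Ndufa8 (68375, chr2:36036324-36049338, minus strand), a complex I accessory subunit of the intermembrane space, had 69.3, 76.7, 73.2, 91.6 and 91.1 CPM in ptLNPIFN-Y against 58.5, 70.2, 61.6, 61.9 and 63.9 CPM in Control (log2 fold change 0.35 ± 0.11, SE, edgeR adjusted p 0.0442). The lowest ptLNPIFN-Y library lies under the highest Control library. Ndufb4c had 16.9, 20.4, 18.1, 25.4 and 25.1 CPM in ptLNPIFN-Y against 15.3, 16.1, 14.6, 14.9 and 16.4 CPM in Control, without overlap (0.45 ± 0.15, adjusted p 0.0424). Its level is uncertain: it is a near-identical copy of Ndufb4, a single block inside the gene Mroh5 (chr15:73809449-73809933), and reads could be split between them. Ndufb4, the parent accessory subunit, had 43, 42.8, 43.5, 59.4 and 56.8 CPM in ptLNPIFN-Y against 33.7, 40.9, 34.7, 39 and 41.5 CPM in Control, also without overlap (0.37 ± 0.13, adjusted p 0.0559). The Ndufa8 call held without Control 2, ptLNPIFN-Y 1 or ptLNPIFN-Y 3 and was lost without any 1 of the other 7 libraries (adjusted p 0.061 to 0.135). The Ndufb4c call held without ptLNPIFN-Y 1 or ptLNPIFN-Y 3 and was lost without any 1 of the other 8 (0.0625 to 0.132). In ptLNPIFN-Y against Control the count of members that rose was 9 without ptLNPIFN-Y 3 (11.7% of all genes) and 7 without ptLNPIFN-Y 1 (14.6%). It was 2 without Control 2 (9.74%), 1 without Control 5 (10.3%) and 1 without ptLNPIFN-Y 2 (9.91%). It was 0 without any 1 of Control 1, 3 and 4 and ptLNPIFN-Y 4 and 5 (8.22% to 10.1%).

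**Figure D5:**
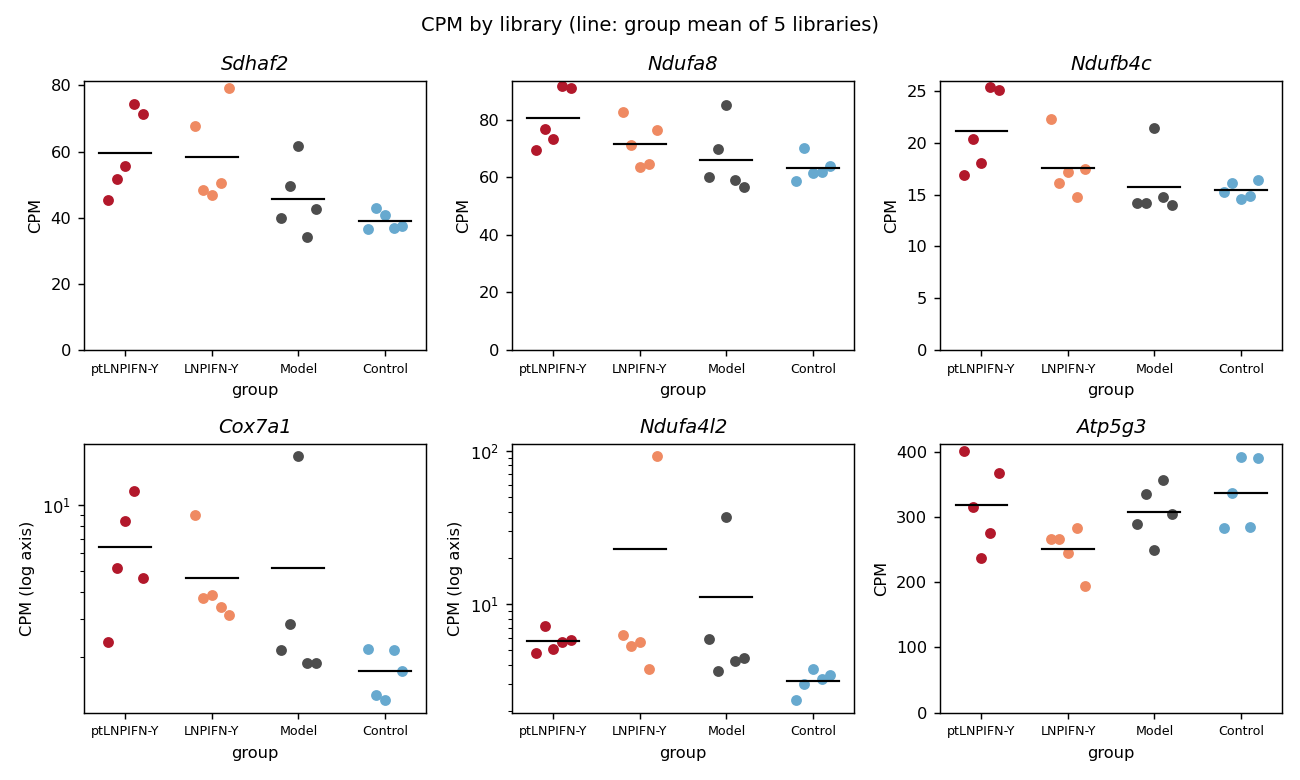
CPM of 6 members in each of the 20 libraries (dots) with group means (lines); the vertical axes of Cox7a1 and Ndufa4l2 are logarithmic and the others start at 0. All ptLNPIFN-Y and LNPIFN-Y dots of Sdhaf2 lie above the Control dots (36.5 to 42.9 CPM), and single libraries carry the means of Ndufa4l2 in LNPIFN-Y (92.3 CPM) and Model (36.9 CPM).

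Of the 92 members, 5 lay lower without overlap in LNPIFN-Y against Control, where 6.5% of all genes did. These 5 did not pass the edgeR test, and they span 3 complexes. Atp5g3 had 266, 267, 245, 283 and 194 CPM in LNPIFN-Y against 283, 337, 392, 284 and 391 CPM in Control, where the nearest values, 283 and 283, differ by less than 1 CPM (log2 fold change -0.43 ± 0.15, SE, adjusted p 0.0631). Cox7a2l, counted here as an assembly factor of complex IV, had 179, 172, 158, 173 and 174 CPM in LNPIFN-Y against 212, 330, 224, 203 and 180 CPM in Control (-0.42 ± 0.15, adjusted p 0.0634). DESeq2 called both (adjusted p 0.0277 and 0.0308). Cox4i1 had 339, 272, 296, 325 and 328 CPM in LNPIFN-Y against 361, 484, 412, 356 and 390 CPM in Control (-0.36 ± 0.15, edgeR adjusted p 0.11). Ndufaf2 was at 10.6 ± 1.19 CPM in LNPIFN-Y and 13.7 ± 0.84 CPM in Control, and the accessory subunit Ndufc1 at 31.5 ± 1.83 and 35.2 ± 1.23 CPM (SD, n = 5 each). In ptLNPIFN-Y the same genes overlapped Control: Atp5g3 was at -0.08 ± 0.15, Cox7a2l at -0.27 ± 0.15, Cox4i1 at -0.14 ± 0.15 and Ndufaf2 at -0.33 ± 0.16.

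Among central subunits, the libraries of Atp5b, Atp5a1, Uqcrfs1, Uqcrc1, Ndufs1 and Sdha overlapped between all groups, whereas those of Cox4i1 did not overlap in LNPIFN-Y and Control. Atp5b had 1290, 1040, 720, 816 and 1400 CPM in ptLNPIFN-Y, 843 to 972 CPM in LNPIFN-Y, 827 to 1070 in Model and 918 to 1150 in Control. The 2 outermost ptLNPIFN-Y libraries contain the values of all other groups. Uqcrfs1 had 91 to 160 CPM in ptLNPIFN-Y, 85.6 to 131 in LNPIFN-Y, 90.6 to 133 in Model and 108 to 153 in Control. Ndufs1 averaged 114 ± 23.2 CPM in ptLNPIFN-Y, 100 ± 9.1 in LNPIFN-Y, 112 ± 10.9 in Model and 114 ± 17.5 in Control (SD, n = 5 each). The SD of the ptLNPIFN-Y group was the largest of the 4 for these genes and for Uqcrc1, Sdha and Atp5a1. In the 6 comparisons the 95% interval lay within a log2 fold change of 1 for 89 or 90 of the 92 members, so that for those genes a doubling was outside the interval.

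Other mitochondrial and energy genes were tested in the same fit. Of all genes, 6.05% rose in ptLNPIFN-Y and 5.25% in LNPIFN-Y against Model, and 12.2% and 10.8% against Control. Of 19 citrate cycle genes and 15 genes for cytochrome c and coenzyme Q, 0 passed the edgeR test in any of the 6 comparisons, with citrate cycle medians of 0.17 in ptLNPIFN-Y and -0.11 in LNPIFN-Y against Model. Atpif1, the inhibitor protein of ATP synthase and no member by name, had 75.9 to 106 CPM in ptLNPIFN-Y, 80.2 to 125 in LNPIFN-Y, 102 to 128 in Model and 80.4 to 119 in Control. Its lowest library was ptLNPIFN-Y 5, the highest for most members, and it did not pass in any comparison (-0.25 ± 0.13, SE, adjusted p 0.259, in ptLNPIFN-Y against Model). Of 35 tested assembly factors with names outside the rule, 1 rose in ptLNPIFN-Y against Model: Coa5, a complex IV assembly factor (0.61 ± 0.15, SE, adjusted p 0.0173). Against Control, 5 rose in ptLNPIFN-Y, with Coa5 (0.78), Cox15 (0.63), an enzyme of heme a synthesis, and Cox17 (0.56), a copper chaperone, among them, and 2 in LNPIFN-Y, Cox15 and Coa5; 0 fell. Of 78 mitochondrial ribosome proteins, 2 rose in ptLNPIFN-Y against Model and 1 in LNPIFN-Y. Mrpl27 is in both: it averaged 45.1 ± 2.71 CPM in ptLNPIFN-Y, 42.4 ± 3.49 in LNPIFN-Y and 31.7 ± 1.51 in Model (SD, n = 5 each; adjusted p 0.000108 and 0.000915). Against Control 5 rose in ptLNPIFN-Y and 3 in LNPIFN-Y.

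Of 20 glycolysis genes, Pfkp, the platelet form of phosphofructokinase, rose in both particle groups against Model (87.6 ± 23.5 CPM in ptLNPIFN-Y, 91.5 ± 28.2 in LNPIFN-Y and 51.4 ± 8.34 in Model, SD, n = 5 each; edgeR adjusted p 0.0178 and 0.0115). Against Control 5 of the 20 rose in each particle group, Hk1, Gpi1 and Pfkp in both. Of all genes, 12.2% rose in ptLNPIFN-Y and 10.8% in LNPIFN-Y there. Of 11 hypoxia targets, Ndrg1 rose in both particle groups against Control (1.98 ± 0.55, SE, in each) and Adm in ptLNPIFN-Y (1.08 ± 0.35). Of 14 regulators of mitochondrial biogenesis, Ppargc1b, a coactivator of the oestrogen-related receptors, rose in ptLNPIFN-Y against Control, with 15.1 ± 2.51 CPM in ptLNPIFN-Y and 8.08 ± 1.79 CPM in Control (SD, n = 5 each; adjusted p 0.0408). T cell and macrophage markers moved in the same comparisons: all 8 T cell markers rose in each particle group against Model and against Control, and they summed to 54.7 to 158 CPM in ptLNPIFN-Y, 40.6 to 93.4 in LNPIFN-Y, 12.3 to 25.4 in Model and 8.17 to 11.6 in Control. Of 8 macrophage markers, 6 rose in each particle group against Control. Their part in the calls on members was not tested.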

How the data were processed

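The authors deposited expected counts per gene, which are not whole in 9.85% of values. Per the submitters' processing notes, HISAT2, StringTie, RSEM and DESeq2 were used with build GRCm38.p6; their versions, and the strandedness of the libraries, are not given in the sources used here. Per the labels' protocols, messenger RNA was captured with oligo(dT) beads and sequenced on a DNBSEQ instrument, and all 20 libraries carry batch 1. A single line of that table came emptied, and 26 symbols turned into dates were restored by gene ID.

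Expected counts as deposited were rounded to whole numbers. Tests used edgeR 4.0.16 under R 4.3.3 on the 15723 genes, all 92 members among them, that passed filterByExpr at a minimum count of 10. Libraries were scaled by TMM, and 1 quasi-likelihood model with group as its term was fitted to all 20 libraries (common biological coefficient of variation 0.439), with 6 contrasts. Benjamini-Hochberg adjustment ran over every gene tested, at a threshold of 0.05. Standard errors were derived from the F statistic (the absolute log2 fold change over its root). CPM values use TMM-adjusted library sizes, and log2 CPM a prior count of 2. TPM was computed from the deposited counts and the lengths in the same table. The fits were also run on simulated counts, drawn for each gene independently from the fitted dispersions. Such counts do not reproduce genes that vary together. Figures were drawn with matplotlib 3.10.9.

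The members (as a group defined by name and summed count), the gene lists and the tests were chosen with earlier results of these data known. Named members are those that passed in any comparison, the 3 highest and 3 lowest fold changes of each comparison, the 2 highest and the lowest of each complex by mean CPM, and a fixed set of central subunits, isoforms and the inhibitor Atpif1; genes of other lists are named where they passed; Ndufa6, Ndufs8, Ndufa9, Ndufb4, Ndufb9, Uqcrh, Ndufaf5 and Ndufc1 were added after their values were seen. Alternatives were DESeq2 1.42.0, RLE, upper-quartile and library-size scaling, no low-count filter, the 2 groups alone, a minimum of 5000 summed counts, finished subunits alone, the replicate number as a block, and each library left out. No 2 libraries were alike within counting noise (lowest median chi-square of a pair 1.67, against 0.455 from counting alone). Results on items withheld from this work are not reported here.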

Additional observations from a re-analysis of the deposited data

Results flagged for a closer look

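Within groups of 5 libraries, a library was singled out where its distance to the nearest other on the log2 CPM scale exceeded 0.71 of the group's whole range (Dixon's 95% value). The 160 combinations examined cover 39 named members and the mean of all members in each group, and 14 met this. Some members were named for their extreme fold changes in these data, so that a rate of 1 in 20 by chance is no yardstick for this count.

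Most of the flagged values belong to members with low levels. Ndufa4l2 was at 92.3 CPM in LNPIFN-Y 5, with the other 4 libraries between 3.77 and 6.22, and at 36.9 CPM in Model 3, with the others between 3.66 and 5.86. Cox7a1 was at 9.01 CPM in LNPIFN-Y 1 (others 3.11 to 3.87) and at 16.9 CPM in Model 3 (others 1.87 to 2.85). Ndufb4c was at 21.4 CPM in Model 3 (others 14 to 14.8), and the assembly factor Sdhaf3 at 9.47 CPM in Model 3 (others 6.01 to 6.86). Ndufaf6, an assembly factor of complex I, was at 8.86 CPM in LNPIFN-Y 5 (others 5.41 to 5.65) and at 8.01 CPM in Model 3 (others 5.42 to 5.97). Sdhaf1 was at 6.02 CPM in LNPIFN-Y 5, under the 10.2 to 11.9 of the others. Model 3 is thus the highest of its group in 5 of these.

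In Model 2, Ndufa11 was at 84.9 CPM (others 33.2 to 42.7) and Cox7a2 at 99.9 CPM (others 76.2 to 79.4). Cox7a2 was also at 81.7 CPM in LNPIFN-Y 3, under the 96.9 to 99.6 of the others. Atp5k, a small membrane subunit of ATP synthase, was at 39.7 CPM in LNPIFN-Y 1 (others 25.5 to 28.2) and at 32.4 CPM in Control 2 (others 24.8 to 26.7). Both are the libraries with the highest adipocyte marker mean in their groups, 1.18 and 1.73. Over all libraries Atp5k was highest in ptLNPIFN-Y 5 (48.1 CPM, adipocyte mean 1.87) and next in Model 2 (41.6 CPM, adipocyte mean -0.1). Control 5 had 26.7 CPM of Atp5k, and its adipocyte marker Fabp4 was at 2120 CPM, against 2170 CPM in Control 2. The part of fat content was not tested.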

How the results depend on the processing

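The 62 results were recomputed under each alternative. Scaling by library size alone moves all genes: their median goes to -0.01, -0.13, -0.18, -0.15 and -0.18 in the 5 comparisons given next. Members with a log2 fold change above 0 numbered 23 in Model against Control, 14 in LNPIFN-Y against Model, 42 in ptLNPIFN-Y against Model, 13 in LNPIFN-Y against Control and 30 in ptLNPIFN-Y against Control (46.8%, 32.1%, 30%, 35% and 33.7% of all genes); 7 members fell in LNPIFN-Y against Control, 2 rose and 4 fell in ptLNPIFN-Y against Control with a median of -0.05, and Ndufaf4 and Ndufb5 were at -0.01 each in ptLNPIFN-Y against LNPIFN-Y. With upper-quartile scaling the counts above 0 were 20 in Model against Control, 28 in LNPIFN-Y against Model and 20 in LNPIFN-Y against Control (44.2%, 38% and 38.3% of all genes). In that setting 2 members fell in LNPIFN-Y against Control (6.54% of all genes) and 2 rose in ptLNPIFN-Y against Control (10.7%).

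DESeq2 called 1 member higher in ptLNPIFN-Y against Model (8.13% of all genes), 1 higher and 2 lower in LNPIFN-Y against Control (14% and 9.08%) and 8 higher in ptLNPIFN-Y against Control (15.4%). Calls higher in ptLNPIFN-Y against Control numbered 2 with no low-count filter (9.19% of all genes) and 1 among finished subunits alone (12.2%). They numbered 2 when both libraries lacking Zp3 were dropped (12%). In LNPIFN-Y against Control they numbered 1 with a minimum of 5000 counts and 0 for finished subunits (10.8% of all genes in both), and 0 without those 2 libraries (8.63%). With the 2 groups alone 1 member fell in LNPIFN-Y against Control (5.23% of all genes) and Ndufaf4 was at -0.01 in ptLNPIFN-Y against LNPIFN-Y. Replicate numbers did not pair the libraries (median correlation -0.16 for the same number and 0 for different numbers, 5 of 20 libraries best matched by their own number). With the replicate block 0 members rose in LNPIFN-Y against Control (8.52% of all genes) and 1 in ptLNPIFN-Y against Control (10.1%). With RLE size factors no such count moved by over 1.5 times.

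With both libraries that lack Zp3 dropped, Ndufa4l2 was at -1.03 in LNPIFN-Y against Model and 0.08 in ptLNPIFN-Y against LNPIFN-Y, and Ndufb5 at -0.04 in that comparison. Model 3, LNPIFN-Y 5 and ptLNPIFN-Y 5 were also left out together, an alternative chosen after seeing the data. In ptLNPIFN-Y against Model 3 members then rose (10% of all genes), with 50 above 0 (46.7%), and Ndufa4l2 was at 0.31. In ptLNPIFN-Y against LNPIFN-Y, Ndufa4l2 was at 0.09 and Ndufb5 at -0.03. Cox7a1 passed in LNPIFN-Y against Control (1.55, edgeR adjusted p 0.02). With each library left out in turn, members that rose numbered 0 to 2 in LNPIFN-Y against Control (7.09% to 11.8% of all genes). They numbered 0 to 9 in ptLNPIFN-Y against Control (8.22% to 14.6%) and 0 to 5 in ptLNPIFN-Y against Model (4.51% to 9.98%). Members that fell in LNPIFN-Y against Control numbered 0 to 1 (1.2% to 8.92%). Members above 0 in Model against Control numbered 22 to 48 (50.2% to 55.3%). Over the same fits Ndufa4l2 ran from -1.17 to 0.32 in ptLNPIFN-Y against Model, from -1.07 to 2.31 in LNPIFN-Y against Model and from -2.26 to 0.12 in ptLNPIFN-Y against LNPIFN-Y. Ndufa11 ran from -0.44 to 0.01 in ptLNPIFN-Y against Model, Ndufaf4 from -0.07 to 0.22 and Ndufb5 from -0.09 to 0.12 in ptLNPIFN-Y against LNPIFN-Y. The cause of these changes was not tested. Depth limits the lowest members most: Cox7a1 rests on 1477 counts and Ndufaf6 on 2021 over all 20 libraries. The 95% interval reached beyond 1 on the log2 scale for Cox7a1 and Ndufa4l2 in all 6 comparisons and for Ndufa11 in LNPIFN-Y against Model. A different pseudocount applies to normalized values and was not run.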
